A study of Homo sapiens with 22 samples.

Results

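The regions described here are the widest stretches of open chromatin called in H1, a human embryonic stem cell line. They were chosen by width alone: a region of the H1 ATAC-seq list on chromosomes 1 to 22 and X was taken when it spanned 1000 bp or more. This rule selected 4260 of 189982 regions, or 2.24%, and they are called wide H1 regions. Together they covered 5.08 of the 70.0 Mb in H1 regions, or 7.26% of the bases. The other 185722 regions of the same list are called narrower H1 regions.

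The study compared chromosome conformation capture assays, and the lists used here are its chromatin maps along the genome. ATAC-seq, in which the transposase Tn5 inserts adapters into accessible DNA, was run on 2 libraries of H1 cells. It was also run on 8 libraries of HFFc6, the c6 subclone of human foreskin fibroblasts immortalised with telomerase. The HFFc6 ATAC libraries have R and T in their names, which the labels do not explain. CTCF was mapped by Cut&Tag in 2 HFFc6 libraries; their titles begin with HFF1, while the cell line label is HFFc6. A further CTCF list is named for human embryonic stem cells (hESC), and the sources used here name neither its assay nor its libraries. No treatment, mutation or transgene other than telomerase is named for these groups, and each cell line is represented as a single line. The other 10 HFFc6 libraries, of the cohesin subunit SMC1 and the histone marks H3K4me3 and H3K27ac, were left aside. Each group was deposited as 1 list with no values per library, so there are no replicates to test over, no p-value is given, and read depth is unknown. Shares carry a 95% Wilson interval, which covers counting error only.

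Most DNA in a nucleus is wrapped around nucleosomes, and promoters and enhancers stand out as stretches from which nucleosomes are cleared or on which they are moved. Promoters of broadly used genes often lie in CpG islands, stretches rich in the dinucleotide CG that escape DNA methylation. CTCF is a zinc finger protein that binds DNA at insulators and promoters and, together with cohesin, holds chromatin loops. Embryonic stem cells keep a pluripotency programme and also hold many developmental genes in a poised state.

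The promoters of 6 genes with a wide region at the start are printed as examples and do not stand for the set as a whole. Among all promoters with a wide region, the median was 27 CG dinucleotides and the 10th percentile 12. Each run holds 250 bases before and 50 bases after a gene start on the strand of the gene, from RefSeq on GRCh38.p14, and CG dinucleotides are in capitals. TXN, which encodes the redox protein thioredoxin, lay in the widest region of all (chr9:110255193-110257733, 2541 bp). Its promoter (chr9:110256458-110256757, minus strand) held 34 CG dinucleotides and 70.0% G+C.
TXN: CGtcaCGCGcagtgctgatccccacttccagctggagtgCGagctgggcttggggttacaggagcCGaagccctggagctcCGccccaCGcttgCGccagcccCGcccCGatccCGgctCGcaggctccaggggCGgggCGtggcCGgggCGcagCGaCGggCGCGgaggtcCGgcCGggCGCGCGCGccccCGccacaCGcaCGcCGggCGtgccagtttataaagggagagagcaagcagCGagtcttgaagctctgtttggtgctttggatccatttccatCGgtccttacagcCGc
TYMS, the thymidylate synthase gene, had the widest region of the cell cycle and replication list (chr18:657342-658478, 1137 bp). Its promoter (chr18:657403-657702, plus strand) also held 34 CG dinucleotides.
TYMS: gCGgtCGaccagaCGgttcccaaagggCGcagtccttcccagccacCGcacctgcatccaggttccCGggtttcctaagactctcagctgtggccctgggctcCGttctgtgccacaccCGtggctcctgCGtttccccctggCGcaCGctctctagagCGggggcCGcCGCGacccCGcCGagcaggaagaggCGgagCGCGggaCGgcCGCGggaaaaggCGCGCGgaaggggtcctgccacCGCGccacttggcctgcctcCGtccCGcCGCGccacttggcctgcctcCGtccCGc
GRM7, a metabotropic glutamate receptor gene, had the widest region that no HFFc6 ATAC region touched (chr3:6860053-6862536, 2484 bp). Its promoter (chr3:6860865-6861164, plus strand) held 16.
GRM7: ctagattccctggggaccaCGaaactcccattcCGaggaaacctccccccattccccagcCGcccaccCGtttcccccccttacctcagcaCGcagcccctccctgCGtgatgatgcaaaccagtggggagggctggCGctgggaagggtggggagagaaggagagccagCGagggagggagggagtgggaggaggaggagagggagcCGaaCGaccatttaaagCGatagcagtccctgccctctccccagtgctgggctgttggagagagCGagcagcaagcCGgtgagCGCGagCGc
NODAL, a TGF-beta family ligand of early development, had the widest region of the pluripotency list that was not in the HFFc6 ATAC list (chr10:70441504-70442776, 1273 bp). Its promoter (chr10:70441632-70441931, minus strand) held 11.
NODAL: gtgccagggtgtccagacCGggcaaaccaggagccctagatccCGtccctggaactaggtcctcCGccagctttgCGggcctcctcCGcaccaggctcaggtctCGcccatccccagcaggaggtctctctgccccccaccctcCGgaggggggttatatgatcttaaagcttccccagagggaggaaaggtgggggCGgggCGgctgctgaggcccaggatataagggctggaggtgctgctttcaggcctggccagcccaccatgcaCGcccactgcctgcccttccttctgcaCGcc
ZSCAN10, a zinc finger gene active in embryonic stem cells, represents wide regions at CG-poor promoters (chr16:3098514-3099648, 1135 bp). Its promoter (chr16:3099245-3099544, minus strand) held 4.
ZSCAN10: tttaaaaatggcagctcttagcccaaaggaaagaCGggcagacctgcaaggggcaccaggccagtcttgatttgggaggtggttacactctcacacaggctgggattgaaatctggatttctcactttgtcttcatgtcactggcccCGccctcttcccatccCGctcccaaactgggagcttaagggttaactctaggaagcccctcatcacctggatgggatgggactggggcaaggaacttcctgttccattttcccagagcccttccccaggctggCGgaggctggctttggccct
OR8A1 was the sole olfactory receptor gene of 314 with a wide region within 1 kb of its start (chr11:124569910-124571011, 1102 bp). Its promoter (chr11:124569747-124570046, plus strand) held 3 CG dinucleotides, and the region had a −log10 q-value of 4.62, far below the median of 41.2 for wide regions.
OR8A1: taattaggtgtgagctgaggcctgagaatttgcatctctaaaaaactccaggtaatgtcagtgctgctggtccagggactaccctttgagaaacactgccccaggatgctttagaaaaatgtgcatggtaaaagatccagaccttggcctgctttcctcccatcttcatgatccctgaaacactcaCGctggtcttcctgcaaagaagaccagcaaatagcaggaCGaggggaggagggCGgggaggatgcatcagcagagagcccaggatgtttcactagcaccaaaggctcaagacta

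Width fell off steeply within the set. The median wide region spanned 1139 bp and the 90th percentile was 1441 bp, while the widest reached 2541 bp. Only 1230 regions reached 1250 bp, 309 reached 1500 bp and 8 reached 2000 bp. Narrower H1 regions had a median of 296 bp. The limit of 1000 bp fell in a continuous distribution, as the plot of widths shows. The 187 regions of 1000 to 1009 bp had a median fold enrichment of 10.1, and 68.4% of them overlapped an HFFc6 ATAC region. The 218 regions of 990 to 999 bp had a median of 10.3, and 72.0% overlapped. At a listed gene start lay 41.1% of those just inside the limit and 45.8% of those just outside it. The hESC-named CTCF list reached 85.6% just inside and 84.9% just outside, and the HFFc6 CTCF list 57.2% just inside and 62.8% just outside.

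**Figure D1:**
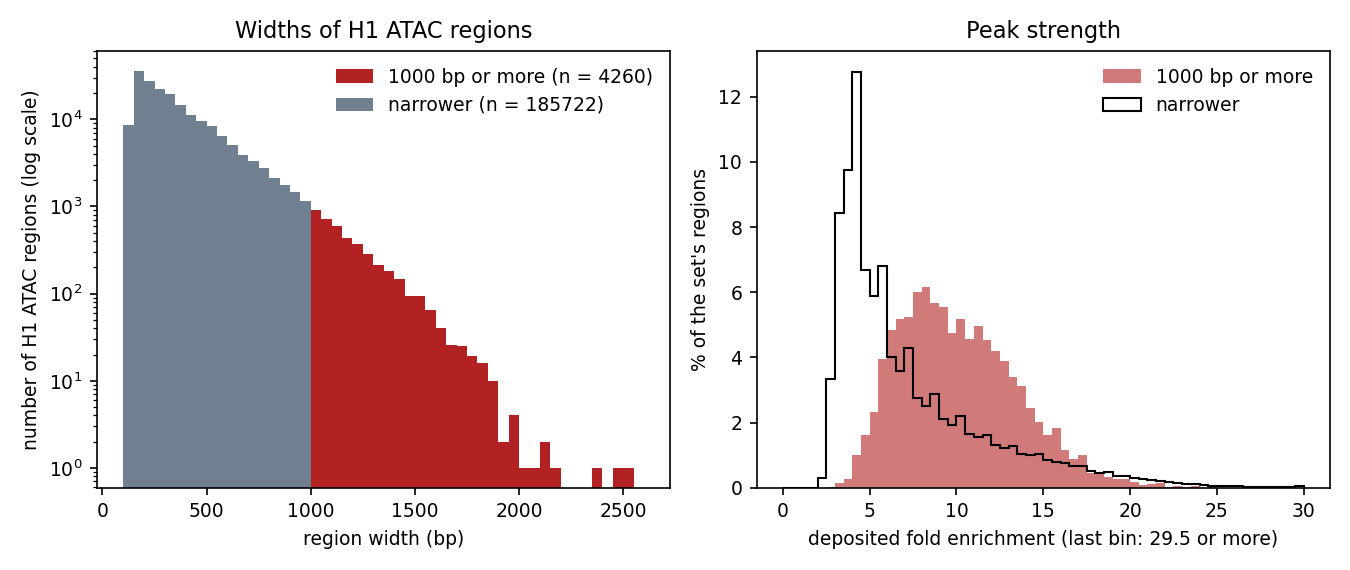
Left, number of H1 ATAC regions (log scale) by width in bp, in bins of 50 bp; right, percent of each set by deposited fold enrichment. Red is the 4260 regions of 1000 bp or more and grey or black the 185722 narrower ones; the counts decline without a break at 1000 bp, and the wide regions centre on a fold enrichment of 9.74 against 5.61.

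Wide regions were stronger than most, but were not the strongest. The fold enrichment deposited for each peak, its signal divided by the caller's estimate of local background, had a median of 9.74 in wide and 5.61 in narrower regions. The highest value was 24.9 in wide and 63.9 in narrower regions. Within the set, strength did not increase with width: the median was 10.2 at 1000 to 1249 bp, 9.08 at 1250 to 1499 bp and 8.40 at 1500 bp and above. The median −log10 q-value, the peak caller's significance after correction for multiple testing, was 41.2 in wide and 9.14 in narrower regions. A value of at least 10 was reached by 96.1% of wide and 47.3% of narrower regions. Width, strength and significance come from the same call, so these values describe the set.

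More wide regions lay at gene starts than at any other place. Of the 4066 wide regions outside chromosome 8, for which the promoter table lists no start, 2252 lay within 1 kb of a listed start of a protein-coding gene, or 55.4% (95% interval 53.9 to 56.9%). The share in narrower regions was 8.12% (7.99 to 8.25%), against a background of 9.18% over all H1 regions. It ranged over chromosomes from 47.1% to 62.8% in wide and from 4.47% to 25.7% in narrower regions, and wide regions had the higher share on 22 of 22 chromosomes. A wide region reaches more bases by construction, so the summit was also used, a single base whose count does not grow with width. Summits lay within 1 kb of a listed start in 53.7% of wide and 7.71% of narrower regions.

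The remaining wide regions were spread over other places. Starts of long non-coding RNA genes held 184, or 4.53% of wide against 2.06% of narrower regions. Other ends of protein-coding genes, among them starts that the table does not list, held 339, or 8.34% against 3.06%. Positions inside a protein-coding gene held 513 wide regions, or 12.6% against 39.4% of narrower ones. Positions between genes held 778, or 19.1% against 47.4%.

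Most wide regions of H1 were also called open in fibroblasts. An HFFc6 ATAC region overlapped 3322 of 4260 wide regions by at least 1 bp, or 78.0% (76.7 to 79.2%), and 30.8% of narrower regions (30.5 to 31.0%). The background over all H1 regions was 31.8%. By summit the shares were 72.7% of wide and 28.7% of narrower regions. The share by overlap ran over chromosomes from 70.1% on chromosome 13 to 87.6% on chromosome 15 in wide regions, and from 21.9% to 51.7% in narrower ones. It was higher for wide regions on 23 of 23 chromosomes. The H1 list covered 70.0 Mb with a median region of 301 bp, and the HFFc6 list covered 124 Mb with a median region of 707 bp.

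Regions wide in H1 were mostly wide in HFFc6 as well. The widest HFFc6 region at a wide H1 region had a median of 1460 bp, against 928 bp at narrower H1 regions. It spanned 1000 bp or more at 2869 wide H1 regions, which is 86.4% of those with an overlap and 67.3% of all 4260. The share at narrower H1 regions was 44.8% of those with an overlap. These pairs took up 6.81% of the 42138 HFFc6 regions of 1000 bp or more, since 2.24% of the H1 list and 27.1% of the HFFc6 list were that wide.

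Most wide regions overlapped the hESC-named CTCF list, and most overlapped the HFFc6 CTCF list. The hESC-named CTCF list overlapped 3747 wide regions, or 88.0% (86.9 to 88.9%), and 40.2% of narrower ones (40.0 to 40.4%), with a background of 41.3%. At summits these shares were 74.8% and 36.3% for wide and narrower regions. The HFFc6 CTCF list overlapped 2997 wide regions, or 70.4% (69.0 to 71.7%), and 23.6% of narrower ones (23.4 to 23.8%), with a background of 24.7%. At summits the shares were 64.9% in wide and 22.1% in narrower regions. Wide regions had the higher share on 23 of 23 chromosomes for both CTCF lists, by overlap and by summit. The labels give Tn5 as the enzyme of Cut&Tag and ATAC-seq alike; a library without antibody was not analysed here, and the part of open chromatin itself in the CTCF calls was not tested.

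The CTCF calls in wide regions were not stronger in the hESC-named list. The strongest overlapping region had a median fold enrichment of 7.80 at wide and 8.25 at narrower H1 regions, against 6.88 for the whole list. In HFFc6 the same medians were 9.76 at wide and 7.92 at narrower regions, against 6.22 for the whole list. When both lists were held to a −log10 q-value of at least 10, hESC-named CTCF was found in 64.9% of wide and 51.0% of narrower regions, a gap of 13.9 percentage points in place of 47.8. The gap in HFFc6 CTCF stayed wider, with 65.9% of wide and 33.8% of narrower regions. Median distance between the H1 summit and the nearest summit of an overlapping hESC-named CTCF region was 116 bp in wide and 64.0 bp in narrower regions, where a wide region leaves room for a larger distance. At least 2 separate CTCF regions of that list lay in 415 wide regions, or 9.74%, against 0.156% of narrower ones, a count that width also favours, and 10 wide regions held 3.

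**Figure D2:**
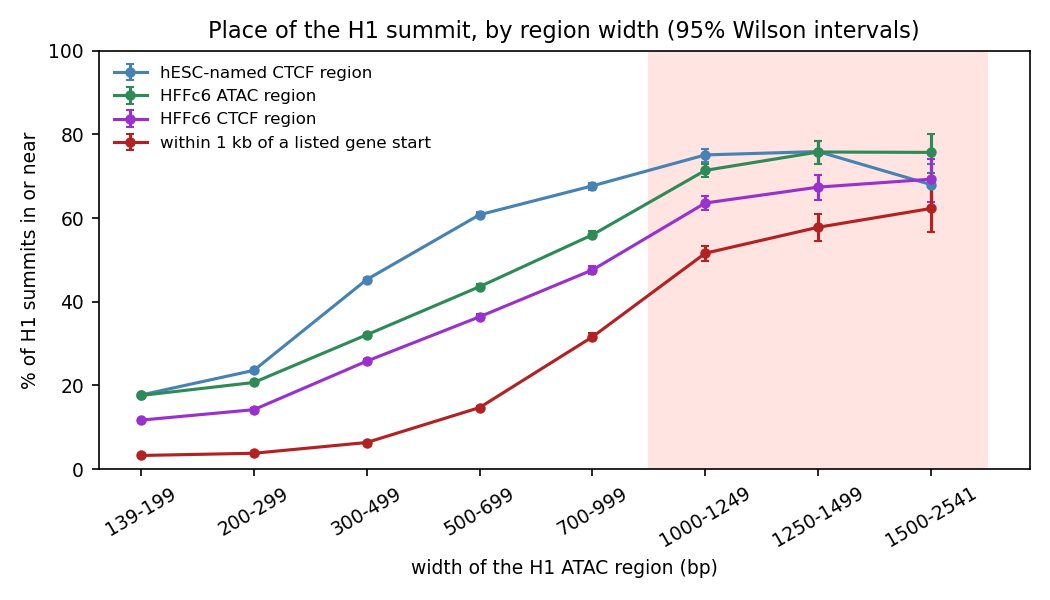
Percent of H1 summits (y axis) that lie inside an hESC-named CTCF, HFFc6 ATAC or HFFc6 CTCF region or within 1 kb of a listed gene start, by width of the H1 region in bp (x axis); bars are 95% Wilson intervals and the shaded part holds the wide regions. The share near a start climbs from 3.25% below 200 bp to 51.6%, 57.8% and 62.3% in the 3 widest bins, while the hESC-named CTCF share is 75.1%, 75.9% and 68.0% there.

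Position at gene starts grew with width inside the set too. The overlap share was 53.0% at 1000 to 1249 bp (51.2 to 54.8%), 60.0% at 1250 to 1499 bp (56.7 to 63.1%) and 65.0% at 1500 bp and above (59.4 to 70.2%). By summit, which width does not favour, the start shares were 51.6%, 57.8% and 62.3% in the same order. HFFc6 ATAC overlap was 76.0%, 82.1% and 85.1%, and by summit 71.4%, 75.8% and 75.7%. The hESC-named CTCF overlap was 86.7%, 91.0% and 90.9%, and by summit 75.1%, 75.9% and 68.0% (62.6 to 72.9%).

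The differences from narrower regions also held at like strength. All H1 regions were split into deciles of deposited fold enrichment, and 8 deciles held at least 20 wide regions. In the top decile, 85.2% of 561 wide and 54.6% of 18436 narrower regions overlapped an HFFc6 ATAC region. A listed start lay within 1 kb of 66.5% of wide and 15.8% of narrower regions there. The hESC-named CTCF shares were closer in that decile, with 96.1% of wide and 87.2% of narrower regions. In decile 3, with 41 wide regions, the HFFc6 ATAC share was 70.7% in wide and 19.3% in narrower regions. Wide regions were above narrower ones in 8 of 8 such deciles for the HFFc6 ATAC, hESC-named CTCF and HFFc6 CTCF lists and for gene starts, by overlap and by summit.

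**Figure D3:**
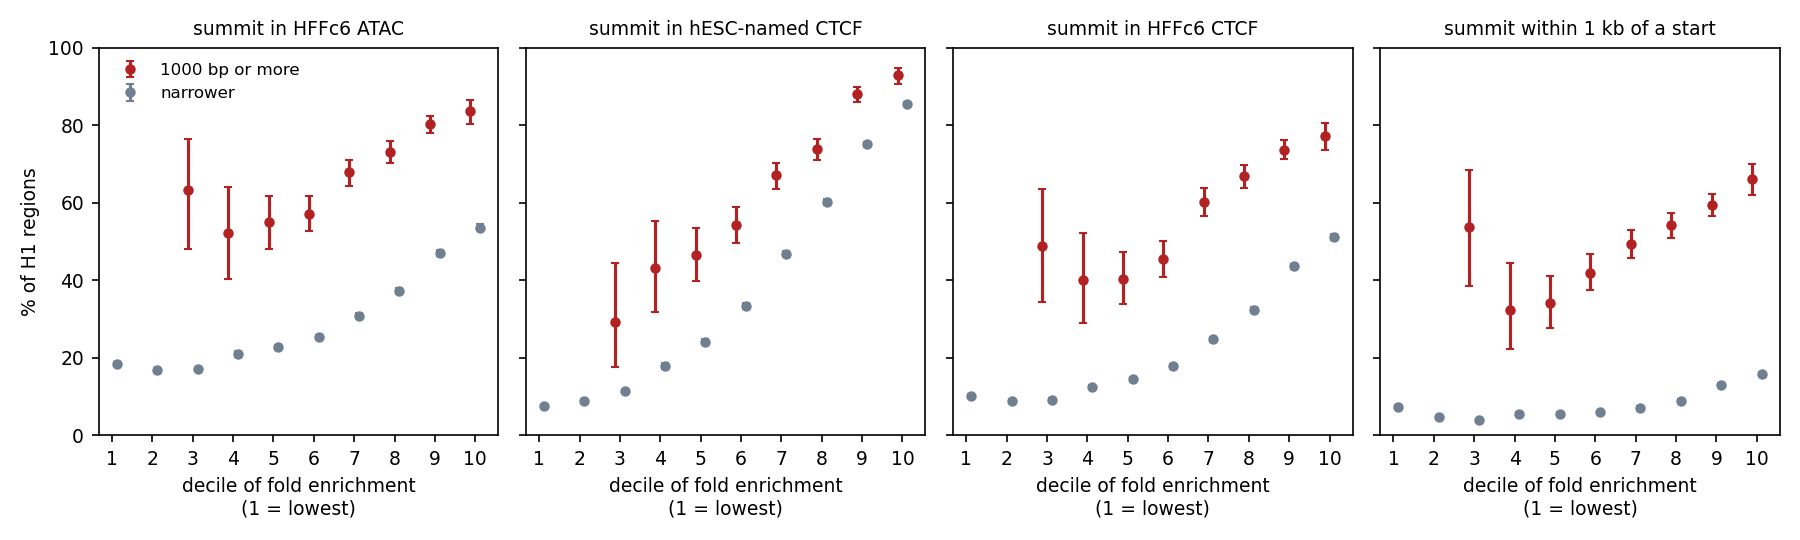
Percent of H1 regions (y axis) whose summit lies in an HFFc6 ATAC, hESC-named CTCF or HFFc6 CTCF region or within 1 kb of a listed start, by decile of the deposited fold enrichment (x axis, 1 the lowest); red is wide and grey is narrower, and bars are 95% Wilson intervals. Red lies above grey in all 8 deciles drawn for it, with the smallest distance for hESC-named CTCF in the top decile, at 93.0% against 85.4%.

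The lists were shared most at gene starts. At listed starts 92.5% of wide and 80.7% of narrower regions overlapped an HFFc6 ATAC region, while inside genes the shares were 50.7% and 26.7%, and between genes 50.6% and 23.4%. HFFc6 CTCF was found at 88.5% of wide regions at listed starts, and at 36.6% inside genes and 36.2% between genes. The hESC-named CTCF list changed less with place: it held 92.1% of wide regions at listed starts, 81.3% inside genes and 79.4% between genes. In narrower regions that list held 68.2%, 38.8% and 35.4% at these places.

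All 3 other lists overlapped 2735 wide regions, or 64.2%, against 16.0% of narrower ones. None of them overlapped 231 wide regions, or 5.42%, against 48.2% of narrower ones. The hESC-named CTCF list alone overlapped 638, or 15.0%, against 17.9%. Of the 938 wide regions without HFFc6 ATAC, 74.9% (72.1 to 77.6%) were in the hESC-named CTCF list and 7.36% (5.85 to 9.21%) in the HFFc6 CTCF list. Of narrower regions without HFFc6 ATAC, 29.8% and 4.47% were in these CTCF lists. Wide regions without HFFc6 ATAC were less often at a listed start (18.9%) than those with it (65.6%).

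Of the 10 widest regions, 8 lay at a listed start of a protein-coding gene. The TXN region had a fold enrichment of 7.30 and met an HFFc6 region of 2418 bp. That of GRM7 had a fold enrichment of 8.59 and overlapped only the hESC-named CTCF list. ITGB8, an integrin beta chain, had a region of 2391 bp (chr7:20329707-20332097) with an HFFc6 region of 1714 bp. GPRIN2 (2166 bp) and SPOCK3, a testican proteoglycan (2145 bp), met HFFc6 regions of 444 and 734 bp and no HFFc6 CTCF region. GNL1 had 2134 bp in H1 and 2298 bp in HFFc6. CHRM2, a muscarinic acetylcholine receptor, had 1994 bp in H1 and 3085 bp in HFFc6. DLG1, a scaffold protein of cell junctions and synapses, had 1988 bp in H1 and 1344 bp in HFFc6. The other two of the 10 lay at an end of a protein-coding gene that has no listed start (2052 bp) and at a start of a long non-coding RNA inside PTPRD (2014 bp). All 10 overlapped the hESC-named CTCF list, 8 the HFFc6 ATAC list and 6 the HFFc6 CTCF list. These counts are near the shares over all wide regions, which were 88.0%, 78.0% and 70.4% in the same order. Their fold enrichments, 4.84 to 9.56, were all below the median of wide regions.

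The 10 widest regions without HFFc6 ATAC spanned 1712 to 2484 bp, with GRM7 first. PTPRD encodes a receptor tyrosine phosphatase of synapses, and its region of 2014 bp (chr9:8857107-8859120) was 77.7 kb from the nearest listed protein-coding start. A region of 1845 bp lay inside CAMTA1, which encodes a calmodulin-binding transcription activator (chr1:6961954-6963798), 176 kb from its listed start. ANO5, an anoctamin of muscle, had 1834 bp at the start. CCSER1 had 1801 bp at the start, and SGCD, the delta sarcoglycan gene, 1827 bp at a gene end that is not a listed start. A region of 1790 bp lay inside the kinase gene TYK2 and overlapped both CTCF lists. A region of 1925 bp on chromosome 13 (chr13:55576321-55578245) lay 606 kb from the nearest listed protein-coding start. Of these 10, 1 was in none of the other lists, a region of 1712 bp between genes on chromosome 6 (chr6:92847428-92849139).

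The 10 regions of highest fold enrichment, 21.7 to 24.9, spanned 1005 to 1339 bp. RABL2B, a small GTPase gene, had the highest at 24.9, in a region of 1008 bp (chr22:50783171-50784178), and this was the only one of the 10 not in the hESC-named CTCF list. TMX3, a thioredoxin-related protein of the endoplasmic reticulum, had 23.3, and TANK, an adaptor of innate immune signalling, 23.0. CEP350, a centrosomal protein, had 21.7 in 1339 bp. Of the 10, 4 were not in either HFFc6 list. They lay inside XRCC4 (23.9), inside PTPRD (22.7), 80.9 kb from the CHD1 start (22.2) and 56.3 kb from the ACVR1 start (21.9). All of them overlapped the hESC-named CTCF list, as did 88.0% of all wide regions.

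Wide regions far from gene starts shared fewer calls with the fibroblasts. Distal regions, more than 10 kb from any listed protein-coding start and from either end of every protein-coding gene, were 1201 of the 4260 (28.2%). Of narrower regions 73.5% were distal. HFFc6 ATAC overlapped 48.2% of the distal wide (45.4 to 51.0%) and 22.7% of the distal narrower regions (22.5 to 22.9%). The hESC-named CTCF list held 79.2% of wide and 33.7% of narrower distal regions, and HFFc6 CTCF 33.8% of wide and 15.3% of narrower ones. Of the 622 distal wide regions without HFFc6 ATAC, 442 were in the hESC-named CTCF list, and 178 were in no other list. Of the 10 widest distal regions 9 were in the hESC-named CTCF list and 3 in HFFc6 ATAC. Those 3 were a region of 1831 bp nearest to the ADRA1B start, at 142 kb, one of 1710 bp nearest to ZNF195 and one of 1678 bp inside SETD1B, a histone methyltransferase gene. Starts of long non-coding RNAs held 111 of the distal wide regions, and 75.7% of these overlapped HFFc6 ATAC. More than 100 kb away lay 403 wide regions, of which 29.8% (25.5 to 34.4%) overlapped HFFc6 ATAC and 68.7% (64.0 to 73.1%) the hESC-named CTCF list.

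Few wide regions were close neighbours, though spacing was not compared with random placement. Of 4237 gaps between neighbours on a chromosome, the median was 364 kb and 5 were under 5 kb. Each wide region was assigned to the nearest protein-coding gene by listed start or, for a gene with none, by either end. That gene had a listed start for 3446 wide regions and none for 814, chromosome 8 included. Among genes with a listed start, 2800 were nearest to 1 wide region, 264 to 2, 29 to 3, 4 to 4 and 3 to 5. The 3 genes with 5 were GALNT17, a glycosyltransferase gene, PTPRD, and NTM, a neuronal adhesion molecule of the IgLON family. The 5 regions nearest to GALNT17 were spread over 1050 kb and included none at the start; 0 of them were in the HFFc6 ATAC list and 4 in the hESC-named CTCF list. Of the 5 nearest to PTPRD, over 2629 kb, 1 was in HFFc6 ATAC, and of the 5 nearest to NTM, 3 were. STOX2, TNS3, KCND2 and RET had 4 each, and for RET, a receptor tyrosine kinase of neural crest and kidney, 3 of 4 were in HFFc6 ATAC. A gene in a large intergenic space collects more regions by this assignment. Over all wide regions, 78.0% were in the HFFc6 ATAC list and 88.0% in the hESC-named CTCF list. Among the 403 described above as more than 100 kb away, these shares were 29.8% and 68.7%.

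The share of H1 regions that were wide ran from 1.68% on chromosome 13 to 3.97% on chromosome 19, with a median of 2.18%. Per 100 protein-coding genes, however, chromosome 13 had the most wide regions (31.7) and chromosome 22 the fewest (10.4).

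Seen from the genes, a wide region lay within 1 kb of a listed start for 2554 of 15812 protein-coding genes, a background of 16.2% for the gene lists below. Any H1 region lay at the start of 79.9% of the genes and an HFFc6 ATAC region at 76.0%. Of the 2554 genes, 94.1% had an HFFc6 ATAC region at the start, 93.8% an hESC-named CTCF region and 90.7% an HFFc6 CTCF region. The 10072 genes with narrower H1 regions only had 89.1%, 84.8% and 83.0% in the same lists, a smaller distance from the wide set than among regions. The 3186 genes with no H1 region at the start had 20.4%, 5.52% and 10.4%.

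The wide set held 150 genes with no HFFc6 ATAC region at the start. After GRM7, ANO5 and CCSER1, the widest were GRM3, another metabotropic glutamate receptor (1626 bp), PROKR2, the prokineticin receptor (1568 bp), PTPN5, a phosphatase of striatal neurons (1568 bp), SLCO4C1, an organic anion transporter (1566 bp), MYO3A, a myosin of hair cells (1561 bp), and NPY2R, a neuropeptide Y receptor (1555 bp). All of these were in the hESC-named CTCF list and not in the HFFc6 CTCF list. Among the 150, hESC-named CTCF lay at 80.7% and HFFc6 CTCF at 16.7%.

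The H1 label was checked on marker genes. Genes without a listed start were left out of every list, and over all genes the shares were 79.9% in H1 and 76.0% in HFFc6. Of 30 pluripotency genes 20 had a listed start. Any H1 region lay at the start of 18 of these 20, and an HFFc6 ATAC region at 11. Of 27 fibroblast matrix and surface genes 16 had a listed start, and the counts were 14 in H1 and 16 in HFFc6. For epithelial junction genes they were 11 of 11 in H1 and 7 in HFFc6, for endothelial genes 4 of 7 in H1 and 5 in HFFc6, and for blood genes 3 of 8 in both. The starts of NANOG and DPPA3 had no H1 region within 1 kb of the listed position. The starts of SOX2 and KLF4 had a region in both lines.

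Of 20 gene lists, 7 had a share of wide regions above 16.2% and 13 below it, and the counts are small. The intervals of all 7 lists above 16.2% held that value. With a limit of 800 bp the share over all genes was 32.4%, and the pluripotency list (25.0%) and the cell cycle list (32.1%) were then below it. In the pluripotency network 5 of 20 genes had one, or 25.0% (11.2 to 46.9%). LIN28B, an RNA-binding protein that blocks let-7, had 1358 bp at a fold enrichment of 10.4, and NODAL 1273 bp at 7.55. CRIPTO, the coreceptor of NODAL, had 1170 bp at 4.77, ZSCAN10 1135 bp at 4.03 and TFCP2L1, a transcription factor of naive pluripotency in mouse, 1001 bp at 7.20. Of these 5, NODAL and CRIPTO had no HFFc6 ATAC region at the start, which held for 150 of all 2554 genes with a wide region. The wide region of ZSCAN10 overlapped no HFFc6 ATAC region either, although one lay within 1 kb of its start. A narrower region only lay at SOX2, KLF4, DNMT3B and 10 further genes.

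The cell cycle and replication list had the highest share of the 20, with 8 of 28 genes, or 28.6% (15.3 to 47.1%), and with widths from 1019 to 1137 bp. CDK1, the mitotic kinase, had a fold enrichment of 19.9, MCM3, of the replicative helicase, 19.4, and CDC20, an activator of the anaphase-promoting complex, 18.0. PCNA, MKI67, TYMS, CDKN2A and CDKN2B made up the rest, at 8.68 to 13.9. All 8 genes also had an HFFc6 ATAC region at the start, as did 94.1% of the 2554 genes with a wide region. The CTCF, cohesin and condensin list had 4 of 16 (25.0%, 10.2 to 49.5%). These were the cohesin subunits SMC1A (1226 bp) and SMC3 (1392 bp) and the condensin subunits SMC2 (1141 bp) and NCAPD2 (1126 bp), at fold enrichments of 12.2 to 14.4. The start of CTCF itself had a narrower region. Splicing factors had 10 of 42 (23.8%, 13.5 to 38.5%), with HNRNPUL2 at 1547 bp and SRSF10 at a fold enrichment of 18.6. Chromatin and DNA methylation regulators had 7 of 31 (22.6%, 11.4 to 39.8%), the widest being TET2, which oxidises 5-methylcytosine (1334 bp), and the histone methyltransferase KMT2B (1273 bp).

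Lineage transcription factors lay below the background. Only 1 of 47 had a wide region (2.13%, 0.377 to 11.1%), ATOH1 at 1185 bp, although 45 of 47 had an H1 region at the start. HOX genes had 1 of 20 (interval 0.888 to 23.6%), HOXD1 at 1115 bp, and this interval holds the background. Signalling genes of the FGF, NODAL, BMP and WNT pathways had 4 of 28 (14.3%, 5.70 to 31.5%), close to the background. They were the ligand NODAL, the signal transducers SMAD3 (1417 bp) and SMAD2 (1078 bp), and the WNT antagonist DKK1 (1017 bp). Clustered protocadherins, which are adhesion molecules, had 3 of 47 (6.38%, 2.19 to 17.2%), of which PCDHAC2 (1450 bp) and PCDHB1 (1221 bp) had no HFFc6 ATAC region. Their interval also holds the background, and 14 of the 47 had no H1 region at the start.

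The intervals of the 5 lists that follow all held the background of 16.2%. Cytosolic ribosomal protein genes had 5 of 67 (7.46%, 3.23 to 16.3%), although 67 of 67 had an H1 region at the start. Mitochondrial ribosomal protein genes had 9 of 66 (13.6%, 7.34 to 23.9%), with MRPS30 at a fold enrichment of 21.6 and MRPS9 at 20.2. Zinc finger genes whose symbols begin with ZNF had 73 of 430 (17.0%, 13.7 to 20.8%), and histone genes 7 of 67 (10.4%, 5.15 to 20%), where H1-4 and H2BC5 shared a region of 1340 bp. Housekeeping genes had 3 of 20 (15.0%, 5.24 to 36.0%), among them POLR2A (1307 bp).

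Among markers of other cell types, the fibroblast matrix and surface list had 3 of 16 (18.8%, 6.59 to 43.0%): the collagen cross-linking enzyme LOX at 1858 bp, fibronectin FN1 at 1333 bp and fibrillin FBN1 at 1179 bp. The epithelial junction list had 1 of 11, the claudin CLDN3, and the endothelial list 1 of 7, the VEGF receptor FLT1. Blood genes had 0 of 8 and keratinocyte genes 0 of 7, with upper limits of the intervals at 32.4% and 35.4%. Of the 314 olfactory receptors 0.318% had a wide region at the start, and only 8.28% had any H1 region there. In all, 145 of the 1288 genes in these lists had a wide region at the start.

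**Figure D4:**
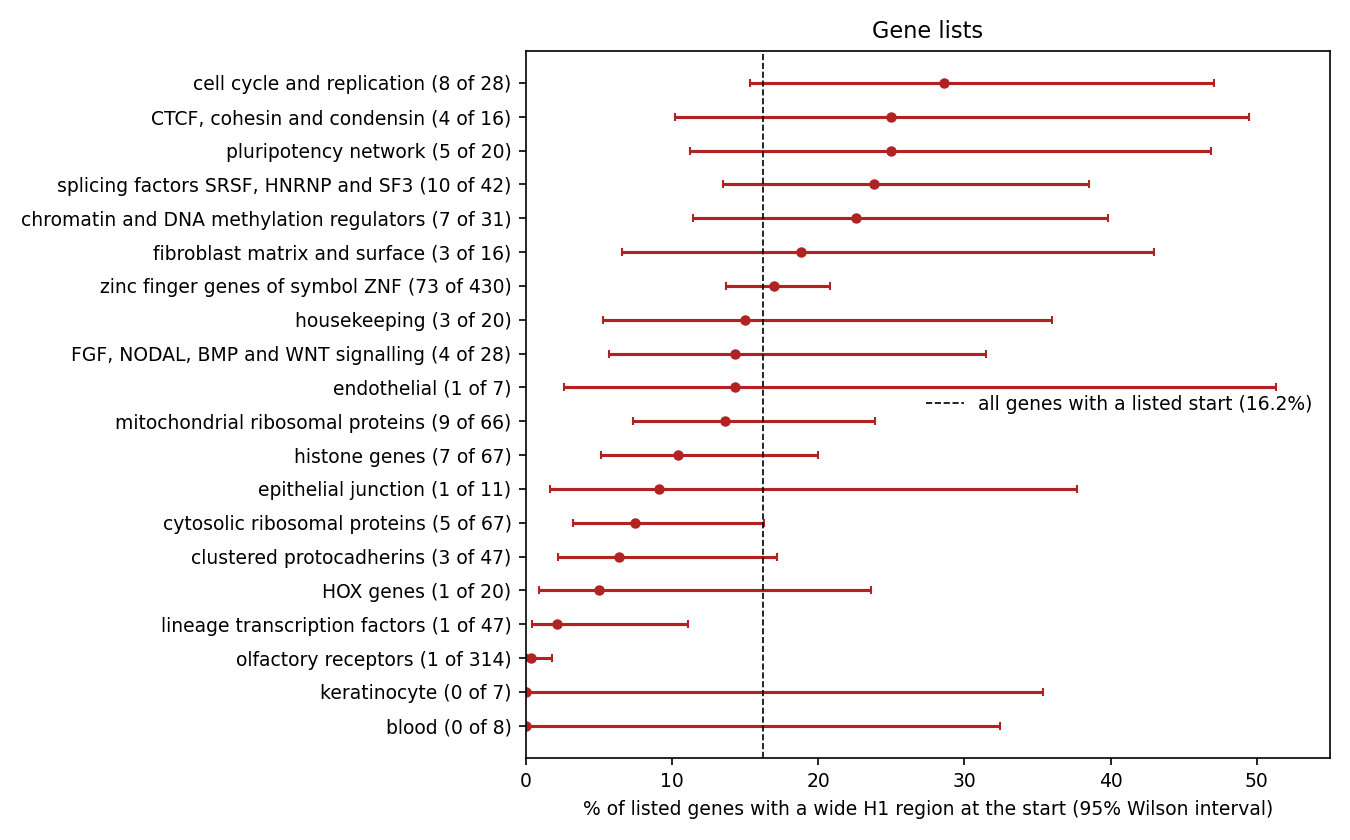
Percent of each list's genes that have a wide H1 region within 1 kb of a listed start (x axis), with 95% Wilson intervals and counts beside the names; the dashed line is the 16.2% of all genes. Cell cycle and replication lies furthest right at 28.6%, and olfactory receptors at 0.318% and lineage transcription factors at 2.13% lie with their whole intervals left of the line.

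Where a gene start lay inside a wide region, the median reach was similar on either side. Of the 22132 listed starts, 3006 lay inside a wide region. The region ran a median of 595 bp upstream and 591 bp downstream of the start, and it ran further upstream in 49.2% of cases. Starts placed anywhere inside the regions would also give similar medians, so these values do not show that regions are centred on starts. The summit lay a median of 74.5 bp upstream. Starts of more than 1 gene were held by 287 of the 2144 wide regions with a start inside. Genes on both strands were held by 267 of them, or 12.5%, against 6.93% of the 8893 narrower regions with a start inside, a share that width favours.

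**Figure D5:**
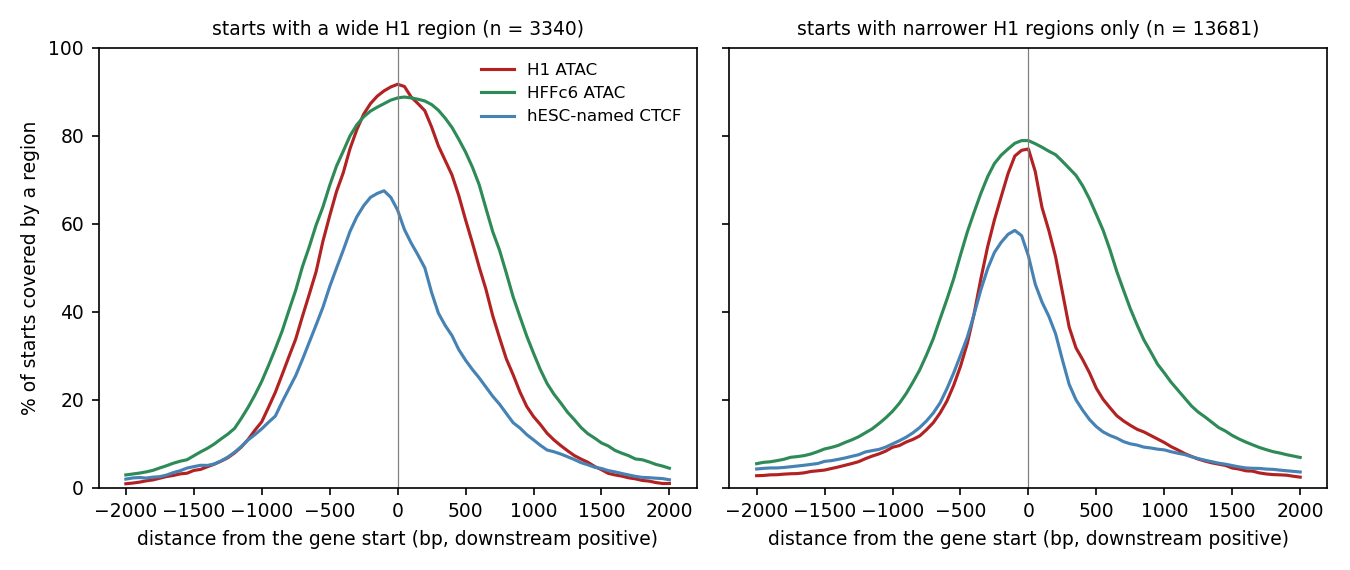
Percent of listed starts covered by a region (y axis) at each distance from the start in bp (x axis, downstream positive), for H1 ATAC, HFFc6 ATAC and hESC-named CTCF; left, the 3340 starts within 1 kb of a wide H1 region, right, the 13681 with narrower ones only. At 500 bp upstream H1 regions cover 61.8% of starts on the left and 27.6% on the right, a gap the width rule sets, while HFFc6 regions cover 68.7% and 52.9%.

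Away from H1, the same starts were more widely covered in the other lists. At 500 bp downstream HFFc6 ATAC regions covered 76.3% of the 3340 starts with a wide H1 region and 62.1% of the 13681 starts with narrower ones only. The hESC-named CTCF regions covered 29.0% and 13.9% of them there. At 500 bp upstream that list covered 45.7% and 30.1%.

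Promoters at wide regions were rich in CG dinucleotides. In the 300 bases printed above for 6 genes, the 3340 promoters with a wide region had a median of 27 CG dinucleotides and 67.0% G+C. The 13681 with narrower regions only had 24 and 64.7%, and the 5111 with no H1 region 4 and 49.7%. At most 5 CG dinucleotides were found in 2.54% of promoters with a wide region (2.06 to 3.14%), 10.4% of those with narrower ones and 63.0% of those with none. The share of promoters with a wide region was 1.80% at 0 to 5 CG dinucleotides, 10.5% at 6 to 15, 19.3% at 16 to 25, 22.9% at 26 to 35 and 21.1% at 36 to 69. It thus did not grow further in the richest promoters. Promoters with a wide region that no HFFc6 ATAC region met within 1 kb had a median of 21 (201 promoters), and those met by one 28 (3139 promoters).

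Short motifs were counted on both strands in the same 300 bases, with any overlap between motifs allowed. The GC box GGGCGG, bound by SP and KLF factors, was found in 74.2% of promoters with a wide region (72.7 to 75.7%), 65.4% with narrower ones only, 20.3% with none and 56.3% of all. Of the 6 promoters printed, 5 held it, the CG-poor ones of ZSCAN10 and OR8A1 included, and TYMS did not. The TATA box TATAAA was found in 4.61% with a wide region, 6.45% with narrower ones, 20.7% with none and 9.46% of all, and TXN held it. CCAAT, bound by NFY, was found in 29.9% with a wide region (28.4 to 31.5%), below the 35.4% with narrower ones, 35.6% with none and 34.6% of all. The ETS core CCGGAAG was found in 14.1%, 16.0%, 3.33% and 12.8% in the same order, and the NRF1 core GCATGCG in 6.11%, 5.29%, 1.90% and 4.63%. The AP-1 site TGACTCA was in 2.07%, 3.33%, 7.10% and 4.01%, the octamer ATTTGCA of POU factors in 2.13%, 3.18%, 5.24% and 3.50%, and the SOX core CATTGTT in 1.59%, 1.95%, 4.54% and 2.49%. The CRE core TGACGTC was in 4.40%, 4.88%, 1.76% and 4.08% in the same order, and the YY1 core AAGATGG in 5.72%, 6.57%, 4.85% and 6.05%. The E-box CACGTG was in 9.64%, 9.12%, 5.40% and 8.34%, and the ZNF143 core ACTACAA in 2.19%, 3.36%, 1.94% and 2.85%. These matches are descriptions of the letters and not of bound sites, and short motifs follow the base composition of the promoter.

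Of 1558 microRNA hairpins in RefSeq, 15 overlapped a wide region and 130 any H1 region. For scale, wide regions were 2.24% of H1 regions and held 7.26% of their bases.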

How the data were processed

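Open chromatin was taken from the H1 ATAC-seq peak list, and 3 further lists (HFFc6 ATAC-seq, HFFc6 CTCF Cut&Tag and the hESC-named CTCF list) were set against it. The submitters' processing notes name BWA, MACS2, bedtools and the build hg38, without versions. Filters, the handling of replicates, background controls and any shift of reads for Tn5 are not given in the sources. Per the labels, every library of a group names the same list, so each is a single call for its group. Of the authors' deposited columns, the score was left aside. Fold enrichment, a ratio of peak signal to local background, and −log10 q-values were used as deposited, to describe, rank or filter regions within a list. The lists stop at a q-value of 0.05.

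Chromosomes 1 to 22 and X were kept, and starts were written counting from 1. Overlaps were computed in Python 3.11.15 with numpy 2.4.6 and pandas 2.3.3 and were checked on 300 simulated intervals with 0 disagreements. Figures were drawn with matplotlib 3.10.9. RefSeq tables (GRCh38.p14, the same chromosomes as hg38) gave genes and starts. The promoter table lists starts for 15812 of 19974 protein-coding genes (79.2%) and for none of the 715 on chromosome 8. Results at starts therefore leave out chromosome 8 and other genes without a listed start, and either end of every protein-coding gene was added as an alternative after seeing the data. Columns of other series numbered 0.

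No test was made: lists have no values per library, and regions are not replicates. Whether libraries came from separate cultures is not stated. The members, gene lists and alternatives were chosen with earlier results of these data known. Regions were named by rule: the 10 widest, the 10 widest without HFFc6 ATAC overlap, the 10 widest distal and the 10 of highest fold enrichment, with the nearest genes. Genes were named from those with the most wide regions and from the lists, those with the widest regions coming before others. The 6 promoters printed, and genes named for their fold enrichment or as examples in the lists, were chosen after their values were seen. Alternatives were the summit base, a −log10 q-value of at least 10, an overlap of 50% of the shorter region, limits of 800 and 1500 bp, and windows of 500 bp and 2 kb.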

Additional observations from a re-analysis of the deposited data

Results flagged for a closer look

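Outside chromosomes 1 to 22 and X, the H1 list held 275 regions, and 8 of them spanned 1000 bp or more (2.91%). They stand here because they meet the width limit but lie outside the chromosomes analysed, and none of the comparisons used them.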

How the results depend on the processing

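No paired analysis was possible because each list is a single call for its group and no test was made. In every alternative wide regions kept the higher share than narrower ones, where both were computed. With the summit base in place of the whole region, the share of wide regions was 72.7% for HFFc6 ATAC, 74.8% for hESC-named CTCF, 64.9% for HFFc6 CTCF and 53.7% for gene starts, a fall that the loss of the region's width gives by construction. With a −log10 q-value of at least 10 the shares were 75.7%, 64.9% and 65.9% for the 3 lists; both the H1 list and the other list were filtered here, the shares of narrower regions were 41.2%, 51.0% and 33.8%, and the cause was not tested. With 50% of the shorter region they were 76.1% for HFFc6 ATAC and 86.4% for hESC-named CTCF. At 800 bp or more they were 70.2%, 83.2% and 61.8% for the lists and 45.2% for gene starts. At 1500 bp or more they were 85.1%, 90.9% and 77.3% for the lists and 65.0% for gene starts. With either end of every protein-coding gene the start share was 58.3%. Genes with a wide region numbered 5125 at 800 bp and 209 at 1500 bp, and genes of the lists 305 and 7, where the limit itself sets the count. Promoters whose start lay inside a wide region held the GC box in 76.4%. At 1500 bp too few genes remained for the side of a list to mean anything. In the other 4 alternatives 15 of 20 lists kept their side of the share over all genes and 5 changed it at 800 bp, where that share was 32.4%. Of 100 values of single lists, 68 stayed within 1.5 times and 32 moved. Read depth is unknown, so regions that a list lacks are not shown to be closed.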
